A study of Mus musculus with 12 samples.

Results

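Gene expression in 3 pools of 20 myofibers was compared with that in 3 whole muscles, 6 of the 12 libraries of a mouse RNA sequencing study. The libraries were grouped by their labels, and all genes were considered. The comparison and the gene lists below were chosen with earlier results of these data known. Both groups came from the extensor digitorum longus (EDL) of C57BL/6 mice, with no genetic change or treatment named in the labels. The fiber pools each held 20 EDL myofibers, and the whole muscle libraries came from undivided EDL. Per the labels, RNA of single myofibers was obtained by lysis in the kit's buffer and that of whole muscle with Trizol, and no separate statement is made for the pools. Isolation of the fibers and the way the RNA was obtained may thus have changed together, and their effects cannot be told apart. The library kit was SMART-Seq HT, which copies whole transcripts into cDNA from very little RNA and does not mark the strand. How many animals gave the fibers is not stated, nor whether a group's 3 samples are from different mice. All p-values thus measure only the spread between these libraries, which may be technical.

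The EDL is a fast muscle of the lower leg whose fibers mostly carry the type IIb myosin heavy chain, with fewer IIx and IIa fibers and very few slow ones. Each myofiber is a long multinucleated cell, and in whole muscle it is surrounded by capillaries, fibroblasts, tendon, nerve, fat and resident immune cells. Immediate early genes are transcribed soon after a stimulus without new protein synthesis, and heat shock genes encode chaperones that keep proteins folded.

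The pools held 8524467, 4702823 and 15345348 counted reads, and the muscles 8088137, 19807973 and 20895762. Levels are given below as CPM, counts relative to the library total after scaling with TMM, a normalization that assumes most genes keep their level, and libraries are always listed in the order pool or muscle 1, 2, 3. The 5 defining fiber genes were present in every pool: per kilobase of exon, Acta1 had a mean of 23096 CPM in the pools and 28214 CPM in the muscles, Ckm 3150 and 3659, Myh4 2473 and 2355, Des 224 and 462, and Ttn 114 and 57.1. Background was read from 1504 olfactory, vomeronasal and taste receptor genes, which muscle is not known to express. At least 1 read fell on 78.7%, 97.3% and 95.4% of them in the pools, and on 2.33%, 4.85% and 3.19% in the muscles (means 90.4% ± 10.3 and 3.46% ± 1.28, SD, n = 3 each). The groups did not overlap, with p = 0.1 in an exact two-sided permutation test, the smallest p that 3 against 3 libraries can give. A gene's reads per kilobase of exon are called above the background density below where they exceeded the 99th percentile of these receptor genes, 29.9 reads per kilobase summed over the pools.

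Pool 2 stood apart. It was the shallowest library, the predicted gene Gm10800 reached 158036 CPM in it (4790 and 12108 in the other pools, 3.49, 4.42 and 4.61 in the muscles), and its levels of the fast sarcomere genes had a median of 0.250 times the mean of the other pools. Across the 7713 tested genes whose mean reached 10 CPM, the median was 0.501 times. Both ratios depend on the scaling, since a larger TMM factor gives lower CPM. The TMM factors of the pools were 0.644, 1.43 and 0.874, and with background reads subtracted 0.711, 0.675 and 0.913. CPM of pool 2 below carry this dependence. Results are therefore given with and without pool 2 where it matters. The plot of the composition of the libraries shows these measures.

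**Figure D1:**
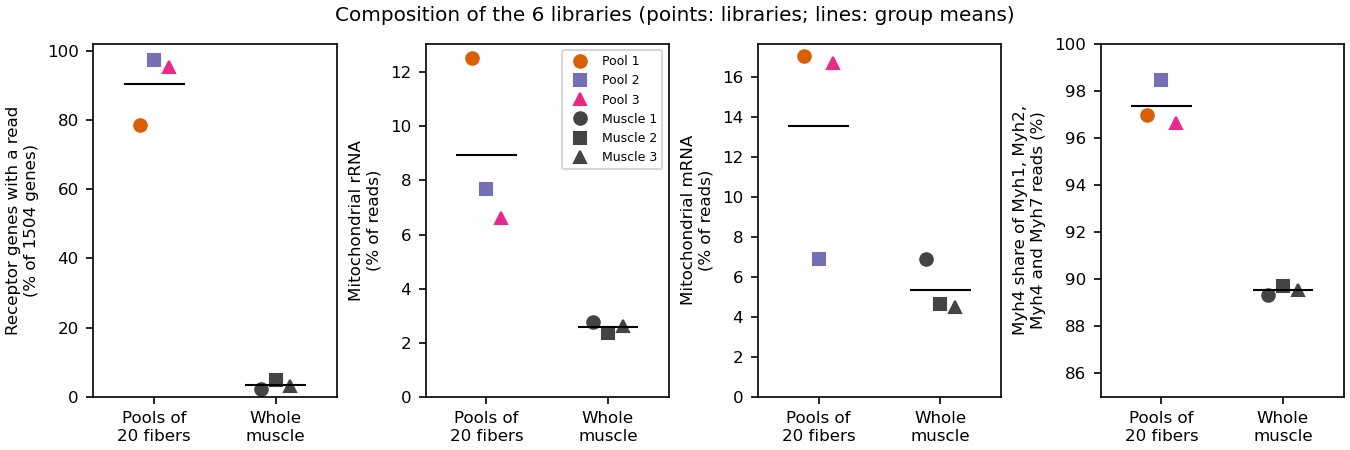
Composition of each library: the share of receptor genes with a read, the shares of reads on mitochondrial ribosomal RNA and mitochondrial mRNA, and the Myh4 share of reads on 4 myosin heavy chains, all in percent. Points are libraries and lines are group means; the axis of the Myh4 share does not start at 0. The pools lie above the muscles in all 4 panels, at 78.7% or more against 4.85% or less for the receptor genes, and pool 2 touches the muscles (6.91% against 6.88%) for mitochondrial mRNA.

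With edgeR's quasi-likelihood test, 16969 of 55573 genes passed the filter on low counts and 7446 (43.9%) differed at a Benjamini-Hochberg adjusted p under 0.05. Of the genes tested, 5147 (30.3%) were higher in the pools and 2299 (13.5%) were lower. Among the higher genes, 2052 (12.1% of those tested) were above the background density in the pools and 3095 were not, and 1127 had no read in the muscles. The filter let a gene in when either group had enough reads, and 4423 of the genes tested would not have passed it on the muscle libraries alone. Such genes entered the test through the pools, so that a higher level there is set in part by the filter, and 3461 of the 5147 calls were among them, with 342 of those on receptor genes. Of the 12546 genes that the muscles alone would have passed, 1686 were higher and 2299 lower. The median log2 fold change was 0.38 over all genes tested and -0.05 over the 10595 above the background density. With the background reads of each library subtracted before the fit, 2405 genes were higher and 2128 lower, so the share of calls that were higher moved from 69.1% to 53.1%. Without pool 2 the counts were 6526 and 4317. Levels of the pools exceeded all those of the muscles in 35.0% of genes tested and lay under all of them in 23.3%. These shares are the background against which the gene groups below are read.

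**Figure D2:**
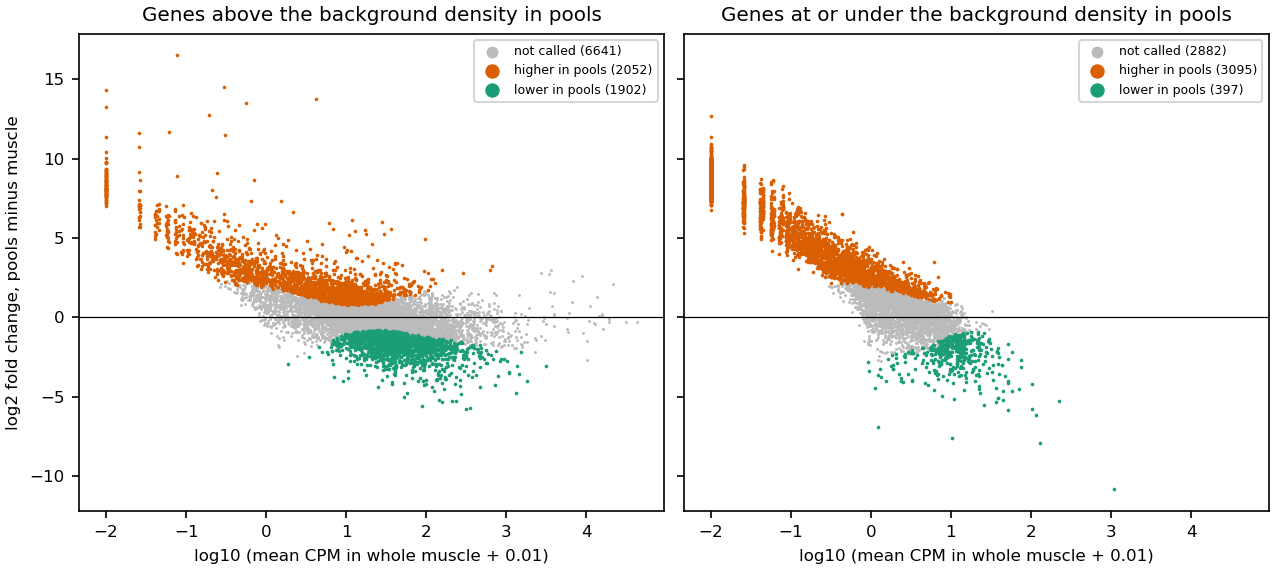
Log2 fold change of each tested gene, pools minus muscle, against the log10 of its mean CPM in whole muscle plus 0.01. Genes above the background density in the pools are on the left and the others on the right; orange genes were higher and green genes lower at adjusted p under 0.05. At or under the background density 3095 genes were higher and 397 lower, the higher ones at low levels in muscle, where a gene entered the test only through the pools, while above it 2052 were higher and 1902 lower.

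Most contractile genes of fast fibers did not pass the test, while most of those of slow fibers were lower in the pools. Of 27 fast sarcomere and calcium release genes, 2 rose and 4 fell (30.3% and 13.5% of all genes tested), with a median log2 fold change of -0.28 against 0.38 over all genes. Myh4, the IIb myosin heavy chain, stood at 22720, 6559 and 15358 CPM in the pools and at 10688, 17355 and 14462 CPM in the muscles. Its log2 fold change was 0.07 (SE 1.33, adjusted p = 0.97), and the groups overlapped. Skeletal actin Acta1 and the fast light chains Mylpf and Myl1 had log2 fold changes of -0.29, -0.09 and -0.28, also with overlap and adjusted p of 0.90 or more.

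The IIa myosin heavy chain Myh2 fell. Its levels were 51.7, 20.6 and 85.7 CPM in the pools and 371, 577 and 456 CPM in the muscles, so every pool lay under every muscle. The fold change was 8.87-fold lower (log2 -3.15, SE 0.69, adjusted p = 0.00169). Myh1, the IIx chain, had a log2 fold change of -1.47 (adjusted p = 0.166), which passed without pool 2 (-1.18, adjusted p = 0.00131) and with DESeq2, its adjusted p reaching 0.405 over the alternatives. Of the reads on Myh1, Myh2, Myh4 and Myh7 together, Myh4 took 97.0%, 98.5% and 96.6% in the pools and 89.3%, 89.7% and 89.5% in the muscles. The means were 97.4% ± 0.972 and 89.5% ± 0.203 (SD, n = 3 each), with no overlap and the smallest exact two-sided permutation p possible, 0.1. Per kilobase of exon the shares were 97.2%, 98.6% and 96.9% against 90.2%, 90.7% and 90.4%. Of 50-base windows sampled from its transcripts, Myh4 shared 18.9% with other genes, Myh1 30.9% and Myh2 26.5%, so part of the reads of this family cannot be assigned by sequence alone.

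Of 13 slow sarcomere genes, 10 fell, against 13.5% of all genes tested, and 3 (Myh7b, Myl6b and Pln) did not pass. The median was -3.53. Slow troponin C, Tnnc1, was at 0.734, 0.804 and 0.226 CPM in the pools and at 89.3, 178 and 127 CPM in the muscles. That is 12 reads over the pools, under their background density, against 7186 over the muscles, and 243-fold lower (log2 -7.92, SE 0.69, adjusted p = 5.44e-06). Slow troponin T, Tnnt1, stood at 1.28, 3.22 and 6.57 CPM against 88.6, 196 and 144 CPM (log2 -5.22, adjusted p = 6.17e-05). The ventricular and slow light chains Myl2 (-3.84) and Myl3 (-4.32), the slow tropomyosin Tpm3 (-3.61) and the slow myosin heavy chain Myh7 (-4.19) fell too. Summed, the list stood at 7.15%, 5.81% and 16.0% of the muscle mean in the pools, with the muscles between 72.4% and 135%. In bulk samples such as these, fewer cells or fibers of a type and less RNA per cell cannot be told apart. The number of falls ran from 8 to 11 over the alternatives.

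Around the calcium release machinery the members went in different directions. Ryr1, the calcium release channel of the sarcoplasmic reticulum, rose from 246, 299 and 324 CPM in the muscles to 3151, 939 and 1978 CPM in the pools (6.98-fold, log2 2.80, SE 0.85, adjusted p = 0.0139). Stac3, which couples the voltage sensor to Ryr1, fell from 136, 169 and 161 CPM to 21.8, 8.20 and 18.0 CPM (9.68-fold, log2 -3.28, adjusted p = 2.80e-04). The groups did not overlap for either gene. The rise of Ryr1 was lost whichever muscle library was left out, without pool 1 and without the filter on low counts, while the falls of Myh2 and Stac3 passed under every alternative. Without pool 2, 6 of the 27 genes rose and 8 fell, and without muscle 3, 2 fell.

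Of 15 dystrophin complex and membrane genes, the only one that passed was Dysf, the membrane repair protein dysferlin, which rose 2.59-fold (log2 1.38, SE 0.44, adjusted p = 0.0181). Its levels were 95.9, 41.0 and 74.0 CPM in the pools and 20.8, 32.3 and 28.1 CPM in the muscles, without overlap. The median of the list was -0.13, and dystrophin itself (Dmd) had a log2 fold change of 1.10 (adjusted p = 0.145). The Dysf call was lost without pool 1 and whichever muscle library was left out. Without pool 2, 6 of these genes rose and 5 fell, and without pool 1, 3 fell.

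Hexokinase stood out among the glycolytic genes, most of which did not pass. Of 20 glycolysis and glycogen genes 1 rose and 2 fell (30.3% and 13.5% of all genes tested), with a median of -0.12. Hk2, the hexokinase of skeletal muscle that traps glucose in the fiber, stood at 4214, 1093 and 3545 CPM in the pools and at 85.8, 107 and 95.4 CPM in the muscles. Every pool was far above every muscle, and the rise of 30.7-fold (log2 4.94, SE 1.00, adjusted p = 9.12e-04) passed under every alternative. Pgk1, phosphoglycerate kinase, fell 6.26-fold (log2 -2.65, adjusted p = 0.00851), with 63.9% of its sampled windows shared with other genes, and Fbp2, the muscle fructose bisphosphatase, fell 2.92-fold (adjusted p = 0.0151). Aldoa (-0.30), Eno3 (-0.97) and Ldha (-0.91), the most abundant members, did not pass. Without pool 2, 3 members rose and 6 fell, and the call of Fbp2 was lost without muscle 2 or muscle 3.

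Genes of fatty acid use were lower in the pools. Of 22 members 13 fell, against 13.5% of all genes tested. The median was -1.53, and 21 had a negative fold change. Acadvl, the very long chain acyl-CoA dehydrogenase of the first step of mitochondrial oxidation, stood at 3.30, 5.15 and 3.25 CPM in the pools and at 140, 183 and 145 CPM in the muscles (40.1-fold lower, log2 -5.33, SE 0.56, adjusted p = 2.05e-05). It overlaps Dvl2 on the other strand, and 19.9% of its sampled windows were shared. Plin5, a lipid droplet protein of oxidative tissue (-2.67), Fabp3, the fatty acid carrier of muscle (-2.66), Etfa, an electron carrier subunit (-2.61), and Pdk4, the kinase that shuts off pyruvate oxidation (-2.50), fell as well. Myoglobin (Mb), the oxygen store of oxidative fibers, fell from 1131, 1441 and 1330 CPM to 66.2, 5.15 and 71.3 CPM (27.3-fold, log2 -4.77, SE 0.99, adjusted p = 0.0011), a gene outside the lists that overlaps Apol6. All pools were under all muscles for each of these 6 genes. The number of falls in the list ran from 7 without muscle 2, where the call of Pdk4 was lost, to 20 without pool 2.

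Of 34 nuclear-encoded respiratory chain genes 33 were tested and 6 fell, against 13.5% of all genes tested, with a median of -1.10. The muscles alone would have passed all 33 through the filter, and of all 12546 such genes 2299 fell. Uqcrc2, a core subunit of complex III, stood at 33.9, 7.88 and 25.3 CPM against 459, 516 and 426 CPM (20.9-fold lower, log2 -4.38, SE 0.72, adjusted p = 2.80e-04), and it passed under every alternative. Sdhd of complex II (-2.78), Cox5a of complex IV (-2.33) and Ndufs3 of complex I (-2.01) also fell. Atp5b (-0.41) and Cox6a2 (0.21), among the most abundant members, did not pass and overlapped between groups. Atp5o had no read in any library and was not tested. The number of falls ran from 2 (without muscle 2 or muscle 3, which lost Cox5a and Ndufs3, or with a minimum of 2-fold) to 20 without pool 2, and was 13 with TMM taken from genes above the background density.

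Mitochondrial RNA took a larger share of the reads in the pools, while few of its genes passed one by one. Mitochondrial ribosomal RNAs took 12.5%, 7.67% and 6.60% of the reads of the pools and 2.76%, 2.34% and 2.63% of those of the muscles (8.94% ± 3.17 and 2.58% ± 0.213, SD, n = 3 each), without overlap (exact two-sided permutation p = 0.1, the smallest possible). Mitochondrial mRNAs took 17.0%, 6.91% and 16.7% against 6.88%, 4.64% and 4.51%, where pool 2 and muscle 1 were nearly equal (exact two-sided permutation p = 0.1). In the fit across genes, 3 of 13 mitochondrial mRNAs rose (30.3% of all genes tested), and the median was 1.59. Of the 12 that the muscles alone would have passed through the filter 3 rose, against 1686 of all 12546 such genes. The 2 ribosomal RNAs mt-Rnr1 (2.78, adjusted p = 0.108) and mt-Rnr2 (2.10, adjusted p = 0.389) did not pass, although their pools lay above their muscles. The mRNAs that passed were mt-Nd6, the only one read from the minus strand (3.22, adjusted p = 0.0258), mt-Co2 (2.46, adjusted p = 0.00771) and mt-Atp6 (1.98, adjusted p = 0.017). All sampled windows of mt-Co2 and mt-Atp6 were shared with other genes. mt-Nd1 at 78722, 14033 and 63805 CPM against 10726, 7875 and 7622 CPM had a log2 fold change of 2.58 that did not pass (adjusted p = 0.231). The number of mRNAs that rose was 10 without pool 2, 9 with DESeq2 or with background subtracted and 1 without muscle 2 or muscle 3, which lost mt-Atp6. Without the filter it was 0 in edgeR's test, with 1 at an unadjusted p under 0.05, and limma-voom with the filter gave 2. The call of mt-Nd6 was lost when any library except pool 2 was left out.

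The largest changes in the mitochondrial genome were on its transfer RNA genes, a pattern singled out after its values were seen. Of 22 transfer RNA genes 10 were tested, and for 5 of these, mt-Tf among them, the muscles alone would not have passed the filter, so that their higher level in the pools is set in part by it. The other 5, mt-Tq, mt-Tm, mt-Tc, mt-Te and mt-Tp, rose as well (log2 1.67 to 5.95), of which mt-Tm is on the plus strand. The sequences of the 3 with the largest change, in mouse GRCm38 with the GENCODE vM21 annotation, are given 5′ to 3′ on the strand of the gene to show how short the counted features are. mt-Tf, the phenylalanine tRNA, lies at chrM:1-68 on the plus strand, mt-Tp, the proline tRNA, at chrM:15356-15422 on the minus strand, and mt-Tq, the glutamine tRNA, at chrM:3772-3842 on the minus strand.
mt-Tf: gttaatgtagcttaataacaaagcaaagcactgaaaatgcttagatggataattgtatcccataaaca
mt-Tp: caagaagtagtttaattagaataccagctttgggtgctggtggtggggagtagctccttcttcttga
mt-Tq: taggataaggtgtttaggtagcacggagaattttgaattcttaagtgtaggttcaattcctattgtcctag
mt-Tf stood at 47.3, 25.6 and 27.2 CPM in the pools and at 0.106, 0 and 0.0931 CPM in the muscles, 777 reads against 3. The ratio of pooled reads was 533 with a counting interval of 182 to 2592 at the 95% level (log2 fold change 8.92, SE 0.61, adjusted p = 1.91e-06). mt-Tp stood at 656, 210 and 274 CPM against 4.55, 6.14 and 7.68 CPM (61.8-fold, log2 5.95, adjusted p = 6.12e-05). mt-Tq stood at 1395, 277 and 383 CPM against 14.5, 24.2 and 14.7 CPM (38.5-fold, log2 5.27, adjusted p = 2.57e-04). Every pool was above every muscle for these 3 genes and for mt-Te (4.63) and mt-Tc (4.42). Since the kit does not mark the strand, reads of these short genes and of longer transcripts across the same positions, on either strand, cannot be told apart. The plot of mitochondrial genes along their genome shows all members tested.

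**Figure D3:**
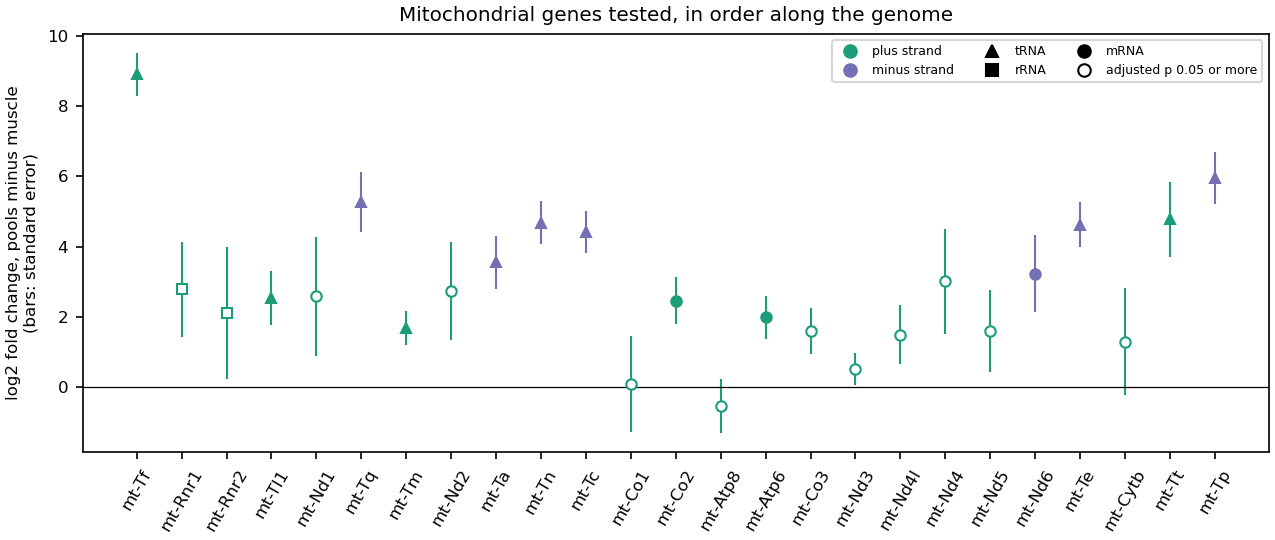
Log2 fold change, pools minus muscle, of the mitochondrial genes tested, in their order along the mitochondrial genome. Bars are standard errors, colours give the strand, shapes the kind of RNA, and filled symbols passed at adjusted p under 0.05; the transfer RNAs tested lie between 1.67 and 8.92, and the minus-strand mRNA mt-Nd6 lies at 3.22.

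Cytosolic ribosomal protein genes had a median of 0.90, with 13 of the 75 tested of 76 listed past the threshold, all upward, against 30.3% of all genes tested. Of the 74 that the muscles alone would have passed through the filter 13 rose, against 1686 of all 12546 such genes. Rps10 was not tested. Rps28, a small-subunit protein, had the largest change, at 434, 84.9 and 398 CPM in the pools and 41.0, 63.0 and 67.1 CPM in the muscles (5.35-fold, log2 2.42, SE 0.67, adjusted p = 0.00816). The pools were above the muscles, pool 2 narrowly. For Rpl28, a large-subunit protein (2.12, adjusted p = 0.0144), pool 2 at 32.5 CPM lay within the muscles (21.2, 36.9 and 45.8 CPM). The abundant Rplp0 (-0.64) and Rps14 (0.86) did not pass. The number that rose was 60 without pool 2, 7 without pool 1, 5 without pool 3 and 2 without muscle 2 or muscle 3. Without muscle 1 it was 0 in edgeR's test (2 at an unadjusted p under 0.05) and without the filter also 0 (0 unadjusted). It was 25 with upper-quartile scaling or with TMM from genes above the background density, 47 with background subtracted, 23 with DESeq2, 2 with limma-voom and 1 with a 2-fold minimum. The median gene of the list shared 40.9% of its sampled windows with other genes.

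The immediate early genes had the highest median of the 26 lists. The lists were chosen with earlier results of these data known, so this rank is a description and not a test. Of 36 tested of 37 listed, 30 rose, against 30.3% of all genes, and the median was 2.70; Fosl1 was not tested. Among the 30, 7, Fosb among them, entered the test only through the pools, so their higher level there is set in part by the filter. Of the 29 members that the muscles alone would have passed 23 rose, against 1686 of all 12546 such genes. All 36 were above the background density in the pools. Fos, which pairs with Jun proteins to form the AP-1 transcription factor, stood at 1054, 285 and 1097 CPM in the pools and at 9.73, 12.6 and 12.9 CPM in the muscles (69.0-fold, log2 6.11, SE 0.85, adjusted p = 1.16e-04). Fosb, of the same family, stood at 139, 54.7 and 180 CPM against 0.317, 0.0982 and 0.279 CPM (544-fold, log2 9.09, SE 0.75, adjusted p = 4.48e-06). Even pool 2, the lowest, was far above the muscles for both genes. Egr1, a zinc finger factor induced by growth signals, stood at 888, 266 and 1174 CPM against 13.6, 17.3 and 20.5 CPM (45.2-fold, log2 5.50, adjusted p = 1.85e-04), and its relative Egr2 had a log2 fold change of 5.61. Nr4a3, an orphan nuclear receptor that responds to contraction, rose 58.1-fold (log2 5.86, adjusted p = 5.10e-06), and Gadd45b, a stress sensor, 9.74-fold (log2 3.28, adjusted p = 9.67e-04).

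The members that did not pass were Dusp1 (1.27), Klf10 (0.92), Myc (0.37), Klf2 (0.17), Klf6 (-0.46) and Rgs2 (-0.59). Summed, the list stood at 934%, 298% and 1051% of the muscle mean in the pools, with the muscles between 88.5% and 109%. The calls of Fos, Fosb, Egr1, Egr2, Nr4a3 and Gadd45b passed under every alternative, and the number that rose ran from 25 (without muscle 1 or without the filter) to 32 (without pool 2 among others). The count was 30 with background subtracted as well. The plot of 26 genes by library shows the spread of these levels.

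**Figure D4:**
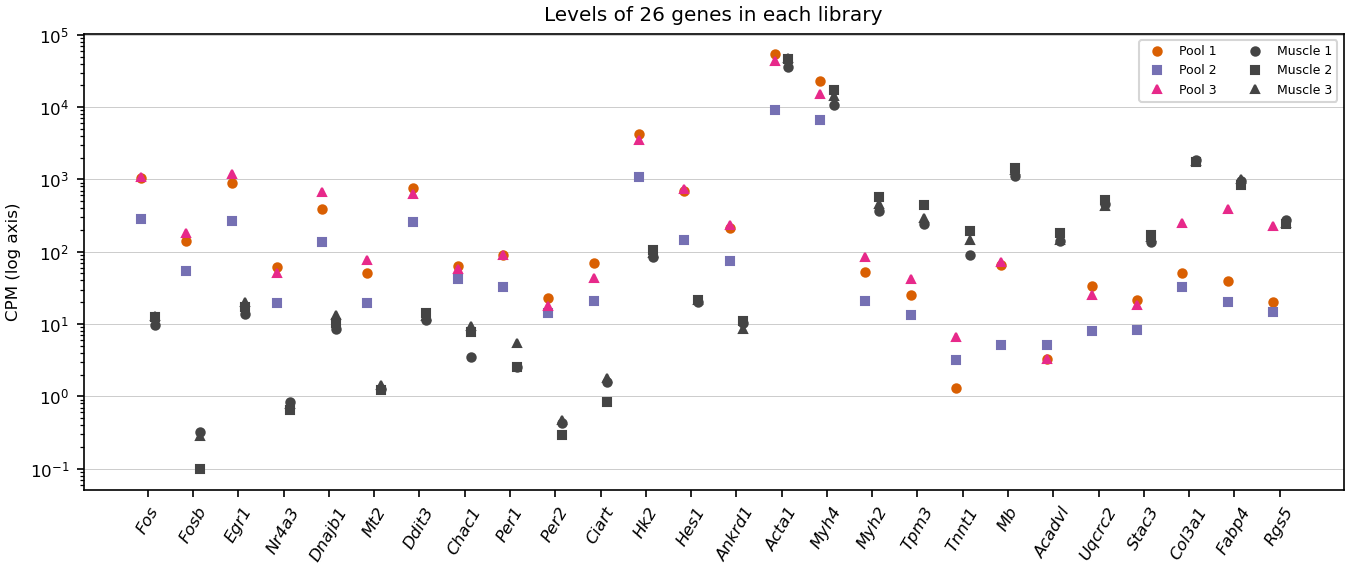
Level of 26 genes in each library, in CPM on a log axis; coloured points are pools and dark points muscles. From Fos to Ankrd1 every pool is above every muscle (for Fos 285 CPM or more against 12.9 or less), Acta1 and Myh4 overlap, and from Myh2 to Rgs5 every pool is below every muscle, pool 3 coming close for Rgs5.

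Of 20 heat shock and metal stress genes 9 rose and 1 fell (30.3% and 13.5% of all genes tested), with a median of 0.92. The muscles alone would have passed all 20 through the filter, and of all 12546 such genes 1686 rose and 2299 fell. The gene that fell was Ahsa1, a co-chaperone of Hsp90 (-2.57). Hspa1a, the inducible Hsp70, stood at 134, 50.5 and 544 CPM in the pools and at 1.48, 1.08 and 2.00 CPM in the muscles (159-fold, log2 7.31, SE 0.93, adjusted p = 6.52e-05). Its neighbour Hspa1b (6.61) shares 62.3% of its sampled windows with it, so the pair cannot be separated well. Dnajb1, the Hsp40 partner of Hsp70, stood at 388, 135 and 660 CPM against 8.57, 10.2 and 13.5 CPM (36.6-fold, log2 5.19, adjusted p = 1.44e-04). Pool 3 was the highest for all 3 genes. The constitutive chaperones Hspa8 (0.05) and Hsp90ab1 (0.12) and the small heat shock protein Cryab (0.11) did not pass, with overlapping groups, but all 3 passed with background subtracted and pool 2 left out. The inducible Hspb1 (0.85) did not pass either, except with background subtracted or without pool 2. The number that rose ran from 6 with a minimum of 2-fold to 16 with background subtracted and pool 2 left out; it was 12 without pool 2 alone.

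Mt2, a metallothionein that binds zinc and copper, rose from 1.27, 1.23 and 1.44 CPM in the muscles to 51.2, 19.3 and 76.0 CPM in the pools (36.9-fold, log2 5.21, SE 0.51, adjusted p = 1.68e-05). Metallothionein genes are known to be switched on by metal response elements, so the promoter of Mt2 is shown, as RefSeq gives it on GRCm38.p6 at chr8:94172368-94172667, plus strand. Capitals mark matches, on either strand, to the core of that element, TGCGCNC or TGCACNC.
Mt2: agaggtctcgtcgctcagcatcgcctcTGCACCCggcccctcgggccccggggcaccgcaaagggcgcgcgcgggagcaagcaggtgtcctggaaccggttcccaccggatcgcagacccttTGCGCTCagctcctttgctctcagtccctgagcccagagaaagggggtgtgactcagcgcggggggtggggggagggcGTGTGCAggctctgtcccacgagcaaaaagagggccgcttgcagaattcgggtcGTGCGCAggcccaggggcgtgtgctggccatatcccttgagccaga
The window held 4 matches. Of 20595 promoter windows of this length 27.9% held at least 1, and of 15 promoters of the heat shock and metal stress list 6 did. A match is a description of letters and does not show binding. Mt2 shared 38.6% of its sampled windows with the predicted gene Gm45774, which overlaps it. The heat shock element was found in 0.539% of all promoters and in 3 of these 15 (Hsph1, Hspe1 and Chordc1).

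Of 15 genes of the integrated stress and unfolded protein responses, 4 rose and 2 fell (30.3% and 13.5% of all genes tested). Their median was 0.32, close to that of all genes. Of the 14 that the muscles alone would have passed through the filter 3 rose and 2 fell. Over all 12546 such genes 1686 rose and 2299 fell. The remaining rise was of a gene that entered the test only through the pools, so its higher level there is set in part by the filter. Ddit3 (CHOP), a factor that promotes cell death under stress, stood at 761, 260 and 629 CPM in the pools and at 11.3, 14.3 and 12.8 CPM in the muscles (42.8-fold, log2 5.42, SE 0.74, adjusted p = 1.05e-04); it overlaps Mars on the other strand. Chac1, a glutathione-degrading enzyme, stood at 64.4, 41.5 and 57.6 CPM against 3.49, 7.71 and 9.49 CPM (7.81-fold, log2 2.96, SE 0.43, adjusted p = 1.35e-04). Both were higher in every pool. Atf4, the factor at the head of this response (1.22, adjusted p = 0.131), and Hspa5, the chaperone of the endoplasmic reticulum (-0.27, adjusted p = 0.747), did not pass. Slc7a11, a cystine transporter (3.83), rose but lay at or under the background density in the pools, and Nupr1, a small stress factor, fell (-2.05). The call of Slc7a11 was lost with background subtracted.

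The Chac1 promoter is shown as the example of the letters TGATGCAA, the composite element through which Atf4 and its partners act, in capitals on either strand (RefSeq, GRCm38.p6, chr2:119350992-119351291, plus strand).
Chac1: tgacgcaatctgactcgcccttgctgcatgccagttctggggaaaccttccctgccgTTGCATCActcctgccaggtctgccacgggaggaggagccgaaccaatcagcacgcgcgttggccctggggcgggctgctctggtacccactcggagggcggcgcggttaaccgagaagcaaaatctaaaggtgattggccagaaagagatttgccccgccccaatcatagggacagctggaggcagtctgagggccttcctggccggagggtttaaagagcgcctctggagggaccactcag
The letters occurred in 0.952% of all promoters and in 4 of 15 of the list (Chac1, Herpud1, Nupr1 and Slc7a11). Of these 4, Chac1 and Slc7a11 rose, Nupr1 fell and Herpud1 did not pass (0.91). A match is a description of letters, and whether it has a part in these changes was not tested.

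Of 19 chemokine and NF-kB genes 16 were tested and 9 rose, against 30.3% of all genes tested. Cxcl2, Il6 and Lif were not tested. Of the 9, 5 entered the test only through the pools, Cxcl1, Il1b and Cxcl10 among them, so their higher level there is set in part by the filter. Of the 11 members that the muscles alone would have passed 4 rose, against 1686 of all 12546 such genes. With background subtracted, or with a 2-fold minimum, 4 rose. Cxcl1, a neutrophil attractant, stood at 28.1, 12.4 and 127 CPM in the pools and at 1.16, 0.982 and 0.745 CPM in the muscles (58.8-fold, log2 5.88, SE 0.75, adjusted p = 6.74e-05). Nfkbiz, an inducible member of the IkB family, rose 16.7-fold (log2 4.06, adjusted p = 1.30e-04). Both groups of libraries were apart, and pool 3 was highest. Il1b, the cytokine interleukin 1 beta, had 83 reads over the pools and 6 over the muscles (log2 4.65, adjusted p = 0.00216). For Cxcl10, an interferon-induced chemokine, pool 3 at 26.8 CPM carried the rise (1.65 and 1.93 CPM in the other pools, 0.529, 1.37 and 0.884 CPM in the muscles; log2 3.43, adjusted p = 0.00622), and the call was lost without it. Nfkbia, the inhibitor of NF-kB, was at 24.6, 11.6 and 117 CPM against 39.4, 50.6 and 50.2 CPM (log2 0.13, adjusted p = 0.882). Without pool 3 it was lower in the pools, and 2 of the list's genes rose.

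The period genes of the circadian clock were higher, and most other clock genes were not. Of 18 members 7 rose and 1 fell (30.3% and 13.5% of all genes tested), with a median of 0.47. Per1 stood at 90.1, 32.7 and 90.7 CPM in the pools and at 2.54, 2.50 and 5.44 CPM in the muscles (20.1-fold, log2 4.33, SE 0.53, adjusted p = 5.27e-05). Per2 stood at 22.7, 14.3 and 18.0 CPM against 0.423, 0.295 and 0.465 CPM (45.7-fold, log2 5.51, adjusted p = 5.44e-06), and Per3 had a log2 fold change of 3.06 (adjusted p = 2.73e-04). The muscles alone would not have passed Per2 through the filter, so its higher level in the pools is set in part by it. Of the 17 members that the muscles alone would have passed, 6 rose and 1 fell, against 1686 and 2299 of all 12546 such genes. Ciart, a repressor of the clock, rose 31.6-fold (log2 4.98, SE 0.50, adjusted p = 1.73e-05), from 1.59, 0.835 and 1.81 CPM to 69.5, 21.1 and 42.9 CPM. Every pool was above every muscle for these genes, and their calls passed under every alternative. Bhlhe40, which represses clock genes and also responds to stress, rose 3.87-fold (adjusted p = 0.017), a call lost without pool 1 and whichever muscle was left out. The member that fell, Arntl (BMAL1, the activator of the clock; -1.17, adjusted p = 0.0112), is named after its values were seen. Its call was lost without pool 3 or muscle 2, with background subtracted and with upper-quartile scaling. Tef (0.18) and Nr1d2 (0.43), abundant members, did not pass. Without pool 2, 9 members rose and 4 fell, without pool 1 or muscle 1, 3 fell, and without muscle 1 or muscle 3, 4 rose. Times of day of sampling are not given in the labels.

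The E-box CACGTG is the letter sequence through which Clock and Arntl act. The Ciart promoter is shown with its matches in capitals (RefSeq, GRCm38.p6, chr3:95882179-95882478, minus strand).
Ciart: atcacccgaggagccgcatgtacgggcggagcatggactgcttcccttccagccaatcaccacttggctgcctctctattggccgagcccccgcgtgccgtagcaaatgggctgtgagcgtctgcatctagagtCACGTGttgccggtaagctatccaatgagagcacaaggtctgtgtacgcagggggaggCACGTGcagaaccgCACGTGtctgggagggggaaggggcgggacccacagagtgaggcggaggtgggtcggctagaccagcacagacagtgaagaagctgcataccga
It held 3 matches, and the E-box reads the same on both strands. Of all promoters 7.66% held it, and of 16 clock promoters 5 did (Per1, Cry1, Tef, Ciart and Bhlhe41), of which Per1 and Ciart rose and the others did not pass.

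Of 19 genes that respond to denervation and wasting 18 were tested, 6 rose and 3 fell (30.3% and 13.5% of all genes tested), with a median of 0.88. Of the 16 that the muscles alone would have passed through the filter 5 rose and 3 fell. Over all 12546 such genes 1686 rose and 2299 fell. Ankrd1, a stretch- and injury-induced partner of titin, stood at 212, 74.0 and 234 CPM in the pools and at 10.3, 11.0 and 8.56 CPM in the muscles (17.4-fold, log2 4.12, SE 0.59, adjusted p = 1.35e-04). Sarcolipin (Sln), an inhibitor of the calcium pump, fell from 24.5, 51.4 and 35.7 CPM to 0.367, 3.54 and 2.42 CPM (17.1-fold, log2 -4.10, adjusted p = 6.63e-05), and Myog, the differentiation factor myogenin, fell 12.5-fold (log2 -3.64, adjusted p = 2.03e-04). The pools and muscles were apart for all 3 genes. The ubiquitin ligase Trim63 (0.92, adjusted p = 0.278) and the protease Ctsl (-0.74) did not pass. The embryonic myosin Myh3 rose (2.81) but lay at or under the background density, and its call was lost with background subtracted. Without pool 2, 12 members rose and 5 fell.

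Of 12 neuromuscular junction genes 5 rose, against 30.3% of all genes tested, with a median of 0.63. The muscles alone would have passed all 12 through the filter, and of all 12546 such genes 1686 rose. Lrp4, the receptor for nerve-derived agrin, stood at 12.3, 18.7 and 11.0 CPM in the pools and at 2.54, 3.04 and 4.89 CPM in the muscles (3.95-fold, log2 1.98, adjusted p = 0.00142). The acetylcholine receptor subunit Chrnd (1.94), the adaptor Dok7 (1.14) and the collagen tail Colq (1.07) rose less surely, each with adjusted p between 0.0257 and 0.0309 and each lost without pool 1 or pool 3. Acetylcholinesterase (Ache, -0.87) and the subunit Chrnb1 (1.04) did not pass. The count was 1 without pool 1, pool 3, muscle 1 or muscle 3. Without pool 2, 6 rose and 3 fell, and 2 fell without pool 1 or with TMM from genes above the background density.

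Of 11 nuclear and imprinted long noncoding RNAs 7 rose, against 30.3% of all genes tested. The median was 1.51, and all 11 had a positive fold change. Among the 7, 6 were above the background density in the pools. Of the 10 that the muscles alone would have passed through the filter 6 rose, against 1686 of all 12546 such genes. The remaining rise was of a gene that entered the test only through the pools, so its higher level there is set in part by the filter. Malat1, a nuclear speckle RNA, stood at 8260, 2515 and 4225 CPM in the pools and at 609, 570 and 681 CPM in the muscles (8.06-fold, log2 3.01, SE 1.02, adjusted p = 0.0247). Kcnq1ot1, an imprinted antisense RNA, stood at 216, 177 and 134 CPM against 29.5, 27.9 and 22.7 CPM (6.57-fold, log2 2.72, adjusted p = 5.26e-04). The libraries did not overlap for either. Snhg12, a host of small nucleolar RNAs (3.37), rose, while Neat1 (0.99, adjusted p = 0.277) and H19 (0.76) did not pass. Malat1 did not pass when any library other than pool 2 was left out.

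Among markers of the other cell types of muscle, most fibroblast, tendon, adipocyte, macrophage and endothelial genes were lower in the pools. Most pericyte, erythroid and Schwann cell genes did not pass. The plot of summed lists gives each pool against the range of the muscles. Fibroblast genes were the most regular: 17 of 18 fell, against 13.5% of all genes, with a median of -3.48, and Col15a1 did not pass (-0.02). Col3a1, collagen III, stood at 51.0, 32.7 and 247 CPM in the pools and at 1830, 1756 and 1792 CPM in the muscles (16.2-fold lower, log2 -4.02, SE 0.97, adjusted p = 0.00321). Col1a1 (-4.25), the proteoglycan Dcn (-3.50), gelsolin Gsn (-3.46) and the microfibril protein Mfap4 (-5.32) fell too. Summed, the list stood at 4.22%, 4.27% and 17.6% of the muscle mean in the pools. Of 9 tendon genes 7 fell, with a median of -2.94, among them Tnmd (tenomodulin, -5.51, adjusted p = 4.48e-06) and Thbs4, at 6.05, 7.40 and 3.55 CPM against 95.3, 82.8 and 93.3 CPM. In the pools 1 of the 9 was above the background density.

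**Figure D5:**
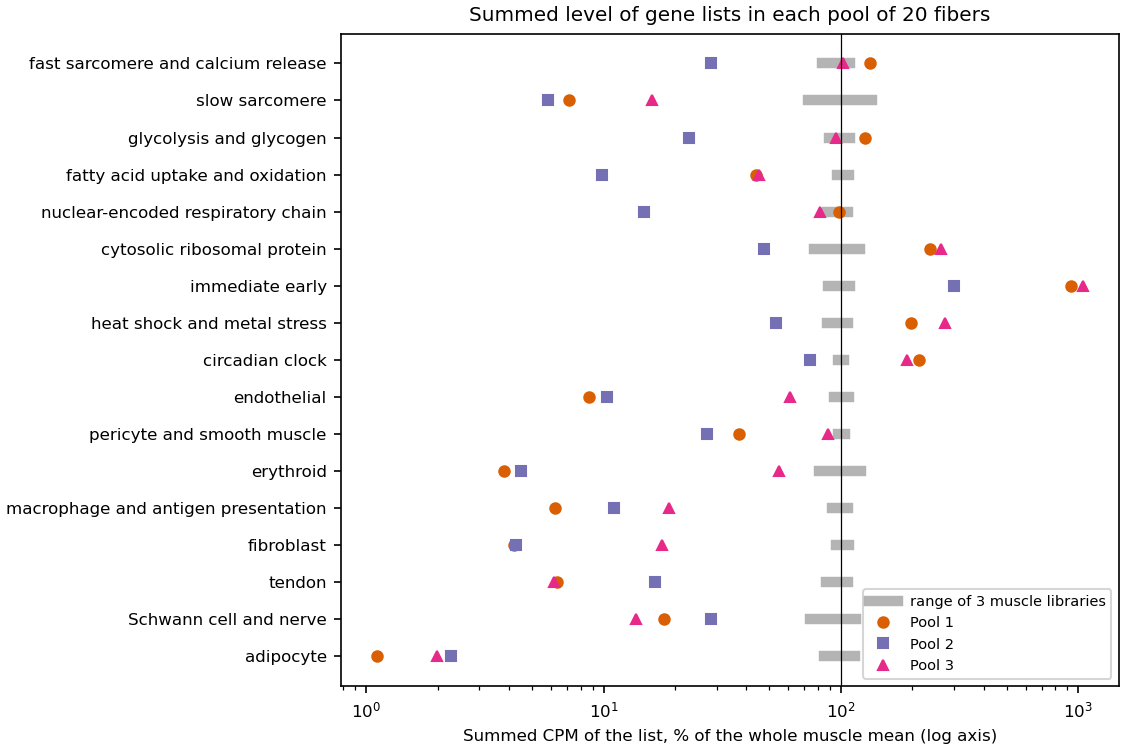
Summed CPM of gene lists in each pool, in percent of the mean of the 3 muscles on a log axis; grey bars span the muscles. Fibroblast, tendon, macrophage and adipocyte markers lie at 18.8% or less in every pool, immediate early genes at 298% or more, and pool 3 stands apart from the other pools for endothelial (61.3%) and erythroid (54.7%) markers.

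Adipocyte genes had the lowest median, -5.12, with 9 of 10 lower. Cfd, the complement factor adipsin, had 0, 9 and 5 reads in the pools and stood at 1180, 958 and 1159 CPM in the muscles (log2 -10.83, SE 1.20, adjusted p = 2.82e-05). Adipoq, the hormone adiponectin, stood at 1.28, 2.73 and 0.981 CPM against 136, 99.1 and 107 CPM (70.1-fold lower, log2 -6.13, adjusted p = 1.08e-05). In the pools 9 of the 10 adipocyte genes were at or under the background density, and the list summed to between 1.11% and 2.28% of the muscle mean. Of 19 macrophage and antigen presentation genes 15 fell, with a median of -2.51. Lyz2, lysozyme, stood at 0.734, 3.22 and 12.6 CPM against 310, 324 and 311 CPM (55.2-fold lower, log2 -5.79, adjusted p = 1.90e-04), and the complement gene C1qb was 26.8-fold lower. With background subtracted 7 of the 19 passed. Of 9 tested Schwann cell and nerve genes of 12 listed 3 fell, against 13.5% of all genes tested. Among them were Mbp of the myelin sheath (-3.11) and Prx (-1.87, lost with upper-quartile scaling). Nefl, Nefm and Pllp were not tested. In the pools 2 of the 12 Schwann cell and nerve genes were above the background density. The list summed to 17.9%, 28.3% and 13.7% of the muscle mean. Its median was -0.54, and -1.24 with background subtracted. Without pool 2, 5 of the Schwann cell and nerve genes fell.

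Vascular and blood markers depended on pool 3. Of 19 endothelial genes 10 fell, with a median of -1.45, and their summed level was 8.65% and 10.4% of the muscle mean in pools 1 and 2 but 61.3% in pool 3. Fabp4, a lipid carrier abundant in capillaries, stood at 39.3, 20.4 and 395 CPM in the pools and at 948, 834 and 1013 CPM in the muscles (6.13-fold lower, log2 -2.62, adjusted p = 0.0382). Cav1, of endothelial caveolae, stood at 12.3, 8.20 and 90.7 CPM against 329, 300 and 314 CPM (8.44-fold lower, adjusted p = 0.00618). Both lay under the muscles in every pool, with pool 3 nearest, and the call of Fabp4 was lost without pool 1, muscle 2 or muscle 3. Of 13 pericyte and smooth muscle genes 2 fell (Acta2, -2.71, and Kcnj8, -2.18), and Rgs5 at 20.4, 14.8 and 226 CPM against 244 to 272 CPM did not pass (adjusted p = 0.144). Of 7 erythroid genes 2 fell, Alas2 of heme synthesis (-4.51) and the globin Hbb-bt (-2.60), the list summing to 3.79%, 4.48% and 54.7% of the muscle mean. Over all genes tested 13.5% fell, and 2299 of the 12546 that the muscles alone would have passed through the filter. Without pool 3, 17 endothelial, 5 pericyte and 5 erythroid genes fell. Endothelial falls were 15 without muscle 1, 6 without muscle 3 and 4 with background subtracted, pericyte falls 5 without pool 2, and erythroid falls 4 without pool 1 or pool 2 and 5 without muscle 1. The part of these cells in the other results of pool 3 was not tested.

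Lists of cells that are rare in muscle were led by single genes. Of 9 lymphocyte and granulocyte genes tested of 12 listed, 2 rose, against 30.3% of all genes tested. Cd79b, a subunit of the B cell receptor, stood at 68.1, 15.6 and 35.6 CPM in the pools and at 1.80, 1.08 and 1.91 CPM in the muscles (log2 4.64, SE 0.52, adjusted p = 2.97e-05). It lies 3830 bases from Scn4a, the sodium channel of skeletal muscle. Ms4a1, another B cell gene, rose (2.63, adjusted p = 0.0279) but was at or under the background density, and its call was lost without pool 2 and whichever muscle was left out. The muscles alone would not have passed Ms4a1 through the filter. Cd3e had a log2 fold change of 0.00, and Cd4, Cd8a and Ltb were not tested. Among 10 satellite cell genes 3 rose and 1, Chodl, fell (-0.95), against 30.3% and 13.5% of all genes tested. Their median was 0.32, against 0.38 over all genes. Hes1, a Notch target that is not restricted to satellite cells, stood at 702, 144 and 728 CPM against 20.1, 21.7 and 21.4 CPM (24.9-fold, log2 4.64, SE 0.77, adjusted p = 2.89e-04). Pax7, the defining factor of satellite cells, stood at 6.60, 10.9 and 8.45 CPM against 2.96, 2.95 and 2.70 CPM (3.02-fold, log2 1.59, adjusted p = 0.0161). Its groups were apart, but the call was lost with background subtracted and whichever muscle was left out, and that of Chodl without muscle 2 or muscle 3.

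Outside the lists, the largest rises above the background density and at 10 CPM or more on average, besides the mitochondrial transfer RNAs, included a phosphate transporter and a proteasome factor. Slc20a1, the transporter, stood at 277, 68.2 and 235 CPM in the pools and at 12.4, 10.2 and 8.42 CPM in the muscles (18.7-fold, log2 4.23, adjusted p = 1.80e-04). Midn, midnolin, which carries nuclear proteins to the proteasome, stood at 48.8, 15.1 and 54.6 CPM against 1.27, 1.82 and 2.14 CPM (22.1-fold, log2 4.47, adjusted p = 2.61e-05). No pool overlapped a muscle for either gene. Avil (5.47), which overlaps Tsfm on the other strand, Sh2d6 (4.29) and Mroh2a (8.02) rose as well, Mroh2a with pool 2 at 114 CPM and the other pools at 18.7 and 14.8 CPM. Rn7s1, a 7SL RNA of the signal recognition particle that shares all its sampled windows with Rn7s2, stood at 14.5, 5.95 and 309 CPM against 0.106, 0.786 and 1.02 CPM, so pool 3 carried most of its rise (7.30). The muscles alone would not have passed at least Mroh2a and Rn7s1 through the filter, so their higher level in the pools is set in part by it.

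The largest falls outside the lists are given with what each gene is known for. Hp, the hemoglobin-binding plasma protein haptoglobin that fat also makes, stood at 1.65, 3.38 and 0.830 CPM in the pools and at 110, 98.2 and 103 CPM in the muscles (55.0-fold lower, log2 -5.78, SE 0.59, adjusted p = 1.74e-05). Retnla, a product of alternatively activated macrophages and fat, stood at 0.183, 1.13 and 3.62 CPM against 69.5, 81.4 and 112 CPM (47.8-fold lower, log2 -5.58, adjusted p = 5.27e-05). Selenop, the selenium carrier of plasma (-5.26), Cyp2e1, a cytochrome P450 (-4.64), Pck1, of gluconeogenesis and glyceride synthesis (-4.54), and the lipid transfer protein Pltp (-4.74) fell too, with every pool under every muscle. Mybph, a myosin-binding protein (-5.71), overlaps Adora1 and shared 36.9% of its sampled windows, and Amd1, of polyamine synthesis (-4.82), shared 78.9%, most with Amd2. Ifi27l2a, an interferon-induced gene (-5.27), Nnat, an imprinted membrane protein (-5.10), and Mgst1, a glutathione transferase (-4.64), fell as well.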

How the data were processed

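RNA sequencing libraries of 3 pools of 20 EDL myofibers and 3 whole EDL muscles were compared, grouped by their labels; the single-fiber and 5-fiber libraries were not analysed here. The authors deposited whole-number read counts per gene, made with HISAT2, SAMtools and featureCounts on GRCm38/mm10, per the submitters' processing notes; versions, strand setting and the treatment of reads with several matches are not given in the sources used here. Totals ran from 4702823 to 20895762 counts. GENCODE vM21 named 55480 of the 55573 gene IDs and 93 had no match.

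Genes were filtered with filterByExpr, scaled with TMM and tested with edgeR 4.0.16 (glmQLFit and glmQLFTest, no covariates, adjusted p by Benjamini-Hochberg over all genes tested, threshold 0.05) in R 4.3.3; every adjusted p in the text is from this test unless another is named. Whether the muscles alone would have passed a gene was read from the filter's CPM minimum in all 3 muscle libraries. The code was tested on simulated data. Alternatives were RLE, upper-quartile and protein-coding TMM scaling, no filter, protein-coding genes only, subtraction of background reads, DESeq2 1.42.0, limma-voom 3.58.1, a 2-fold minimum (glmTreat), a replicate block and leaving out each library; 2 more were added after seeing the data. The share of sequence that a gene shares with other genes was taken from 50-base windows of its transcripts, searched in all GENCODE transcripts, and promoters from RefSeq (GRCm38.p6). Named genes were the 12 with the largest change in each direction at a mean of 10 CPM or more, without overlap of the groups and, if higher, above the background density; in each list the 3 with the highest level and the 4 called with the largest change; and Myh1, Myh2, Myh4, Myh7, mt-Rnr1, mt-Rnr2 and Gm10800. Others were named after their values were seen. The libraries compared and the gene lists were chosen with earlier results of these data known. A few genes that meet the rule for named genes are not reported here.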

Additional observations from a re-analysis of the deposited data

How the results depend on the processing

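Against 5147 genes higher and 2299 lower in the pools (69.1% of calls higher), removing the filter gave 20116 higher and 3272 lower over 50323 genes tested (86.0% higher), a 2-fold minimum 3728 and 976 (79.3%), and subtracting background reads 2405 and 2128 (53.1%). Subtraction without pool 2, added after seeing the data, gave 3482 and 3865 (47.4%). Leaving out each library in turn gave 4362 to 9960 higher and 1389 to 4317 lower; more genes passed the filter without pool 1 (23580 tested) or muscle 1 (24910 tested). DESeq2 gave 5494 and 2781, limma-voom 4910 and 2098, RLE scaling 5078 and 2484, and upper-quartile scaling 5639 and 1991. Upper-quartile scaling moved the median log2 fold change of all genes from 0.38 to 0.66, protein-coding TMM to 0.50 and TMM from genes above the background density, also added after seeing the data, to 0.59. With the replicate number as a block 4833 genes were higher and 2263 lower; same-numbered libraries deviated from their group means with correlations of -0.157, -0.080 and 0.221, so the numbers were not taken to pair the samples. Under the block 1 ribosomal protein gene rose and 1 fell, and 0 mitochondrial mRNAs rose in edgeR's test (2 at an unadjusted p under 0.05). Differences in composition between groups kept their direction whichever library was left out: 83.6 to 92.9 percentage points for receptor genes with a read, 4.56 to 7.53 for mitochondrial ribosomal RNA, 6.46 to 11.5 for mitochondrial mRNA and 7.29 to 8.20 for the Myh4 share. Nfkbia changed sign, from 0.13 to -1.36 without pool 3 (0.42 without pool 2, the highest with a library left out); the cause was not tested. The shallowest library, pool 2, and the background reads of all pools limit what can be said of genes at low levels.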

Other observations

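The direction of change went with the length of the gene's exons. Over 5 classes of genes tested of nearly equal size, from the shortest to the longest exon length, the median log2 fold change was -0.18, 0.05, 0.23, 0.51 and 0.99. The share of genes higher in the pools was 19.8% in the shortest class and 47.7% in the longest, and the share lower was 19.6% and 4.27%. Ryr1, with 21838 exon bases, was in the longest class and rose (2.80 on the log2 scale), and Tnnc1, with 1041, was in the shortest and fell (-7.92). Of the genes tested 4423 would not have passed the filter on the muscle libraries alone, and their part and that of background reads in the pattern were not tested.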
